A study of Homo sapiens with 12 samples.

Results

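The 365 loci described here lay in 322 human genes and were found with both epitope tags of dSpCas9 over size-matched input, but over the empty vector control with the FLAG tag and not with the V5 tag. They were selected on the deposited peak lists themselves. The peaks of all 4 lists were pooled, peaks within 10 nt of each other on a strand were merged into 8501 loci, and a locus was a member when it held a peak in the V5 input list, the FLAG input list and the FLAG empty vector list and none in the V5 empty vector list. Of the 2693 loci with a peak in both input lists, 36.8% were in the FLAG empty vector list, 47.4% were in the V5 empty vector list, and 13.6% were in the FLAG and not in the V5 empty vector list. The other loci over both inputs had a peak over the V5 empty vector only (650), over both empty vectors (626) or over neither (1052). All 4 lists chose the members, so every enrichment value below is a description of the selection and carries no test.

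RNA bound by dSpCas9, a Streptococcus pyogenes Cas9 without nuclease activity, was measured by eCLIP in Lenti-X 293T cells, a HEK 293T line from human embryonic kidney that is readily transfected. The 12 libraries formed 6 groups of 2 biological replicates. Cells transfected with V5-dSpCas9 gave V5 IP and V5 size-matched input libraries, and cells transfected with 3xFLAG-dSpCas9 gave FLAG IP and FLAG size-matched input libraries. Cells with the empty vector gave 1 IP group per antibody. The protein was predominantly cytoplasmic, and the labels of these groups name no guide RNA. Cells were cross-linked 48 h after transfection. All groups were exposed to 400 mJ/cm2 of UV light 2 times, and RNA was taken from the membrane from 115 kDa upward. Each list holds 1 value per peak that already combines both replicates, so no replicate spread can be given for any peak, and the depth of the libraries is unknown. A peak list holds no expression level, so markers of the cell line were not checked.

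In eCLIP, ultraviolet light joins a protein to the RNA it touches, an antibody recovers the protein, and reads pile up where the RNA was held. A size-matched input shows what RNA lies in the same membrane region without an antibody, which marks abundant transcripts and those held by other large proteins. An IP from cells with the empty vector shows what the antibody and the beads bring down when the tagged protein is missing. Cas9 normally carries a guide RNA, whose repeat and tracr portions fold into stem loops that the protein grips, and the GU-loop:5nt-stem model used in the study looks for a G and a weakly paired U upstream of 5 paired bases. It was read here with the stem beginning at the base after the U. A peak absent from a list failed at least 1 of the filters on enrichment, p-value or reproducibility, and which filter it failed cannot be read from the lists. Absence from the V5 empty vector list is therefore not a measurement of no enrichment.

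The sequences below show, in the strand of the RNA and in DNA letters on hg38, stretches of up to 30 nt from the members that the results turn on. The first 6 come from the 10 members with the highest values over the FLAG empty vector IP and hold a called GU-loop:5nt-stem, the next 3 are from the same 10 and hold none, and 3 come from genes of the p53 pathway. The last pair are the whole loci with the highest values over the FLAG input. Capitals mark the GU and the 5 stem bases. In PPM1D the capitals lie within the FLAG empty vector peak of the locus and outside its V5 input and FLAG input peaks.
UBAC2, chr13:99318041-99318070, plus strand, CDS: acatctggattGTAGCCAtaagtggacttg
SEC16A, chr9:136441212-136441241, minus strand, 3′ UTR: ggctgaatgaGTGGAGGgcgctgtgttctc
ABHD2, chr15:89199236-89199265, plus strand, 3′ UTR: tgtctgagatGTAAGAAgcttttcttttcc
MAP1LC3B, chr16:87403597-87403626, plus strand, 3′ UTR: tgccatcacaGTTGGCAcaaacgcagggta
TRA2B, chr3:185917595-185917624, minus strand, 3′ UTR: gcctagtgaaGTTAGGTgacttttacacct
ILRUN, chr6:34588592-34588621, minus strand, 3′ UTR: gcagagggaaGTCTCTGccaggtacccacg
FBXW2, chr9:120764819-120764848, minus strand, CDS: gggtcatcaagactcctgagatagcaaact
RPL21, chr13:27255314-27255343, plus strand, CDS: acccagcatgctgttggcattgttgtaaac
TMEM231, chr16:75538969-75538998, minus strand, 3′ UTR: atcagagtggggcgggcagctttgggaagg
AEN, chr15:88630333-88630362, plus strand, 3′ UTR: ccggtaggaaGTGGGGGccaggagagcagc
PPM1D, chr17:60623565-60623594, plus strand, CDS: acaactgccaGTGTGGTcatcattcggggc
CDKN1A, chr6:36686583-36686612, plus strand, 3′ UTR: ctgggctctgcaattcccctctgctgctgt
ENSG00000254404, chr11:62252198-62252222, minus strand, intron: ctcgaagtccctgttcaggcgccac
ENSG00000269535, chr19:52331908-52331931, minus strand, intron: attctgtccctgttcaggcgccac

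The members held 1309 peaks, 418 in the V5 input list, 480 in the FLAG input list and 411 in the FLAG empty vector list. In 246 of the 365 loci each of the 3 lists had a single peak. The loci had a median length of 115 nt and ranged from 22 to 355 nt. In 356 loci at least 1 nt was shared by peaks of the 3 lists, with a median of 72.5 nt, the stretch that all 3 comparisons marked. In the other 9 (in PIP5K1A, EXT2, ZNF740, ENSG00000261147, CIAPIN1, PTPRS, STEAP3, NR2C2 and SEC61A1) no base was shared by the 3 lists.

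Where a locus had several peaks in a list, its highest peak was used. The median log2 enrichment of the members was 3.82 over the V5 input, 4.02 over the FLAG input and 3.58 over the FLAG empty vector IP. Loci over both empty vectors had higher medians in the same lists, at 4.30 over the V5 input, 4.38 over the FLAG input and 3.72 over the FLAG empty vector IP. Loci over neither empty vector had lower medians, at 3.59 over the V5 input and 3.51 over the FLAG input. Loci over the V5 empty vector only had 3.802 over the V5 input and 3.58 over the FLAG input. The members and the V5 only class both sat between the other 2 classes over each input. The values over the FLAG empty vector IP reached 4 or more in 81 members and 5 or more in 7, and in 31 members they were within 0.1 of the lowest value the lists admit, which is 3. The enrichment over the FLAG empty vector IP was lower than over the FLAG input in 285 members and higher in 80. For 249 FLAG empty vector peaks of members that had the same start and end as a FLAG input peak, the median of input enrichment minus empty vector enrichment was 0.42 on the log2 scale.

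The median −log10 of the deposited p-values was 6.58 in the members over the V5 input, 11.4 over the FLAG input and 7.02 over the FLAG empty vector IP. Loci over the V5 empty vector only had median −log10 values of 15.8 over the V5 input and 16.9 over the FLAG input, loci over both empty vectors had 19.4 and 27.2, and loci over neither had 7.32 and 8.99. Members thus had the lowest median −log10 p-value of the 4 classes over the V5 input. The part of read depth in this was not tested.

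The 10 members with the highest enrichment over the FLAG empty vector IP were led by UBAC2, which encodes a membrane protein of the endoplasmic reticulum with a ubiquitin-associated domain. Its 49-nt locus in exon 6 of 9 (chr13:99318022-99318070, CDS) had a log2 enrichment of 3.89 over the V5 input, 4.43 over the FLAG input and 5.67 over the FLAG empty vector IP. FBXW2, an F-box protein that selects substrates for an SCF ubiquitin ligase, had 3.79 over the V5 input, 4.24 over the FLAG input and 5.18 over the FLAG empty vector IP in its last exon (chr9:120764714-120764848, CDS). In both genes the value over the empty vector was the highest of the 3 lists. SEC16A, which organizes the sites where transport vesicles leave the endoplasmic reticulum, had 5.59 over the V5 input, 4.84 over the FLAG input and 5.15 over the FLAG empty vector IP (chr9:136441161-136441263, 3′ UTR). No V5 empty vector peak lay anywhere in the gene.

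ATP6V1C1, a subunit of the proton pump that acidifies lysosomes, had 5.11 over the V5 input, 5.94 over the FLAG input and 5.09 over the FLAG empty vector IP in its 3′ UTR. ABHD2, a serine hydrolase, had 3.95, 5.40 and 5.05 in the same order (chr15:89199178-89199316, 3′ UTR, 3827 nt after the stop codon). The FLAG input value of ABHD2 was 1.45 above its V5 input value on the log2 scale. MAP1LC3B, the LC3B protein that coats autophagosome membranes, had 4.51 over the V5 input, 4.68 over the FLAG input and 5.05 over the FLAG empty vector IP at chr16:87403517-87403678. A second member in the 3′ UTR of MAP1LC3B, at chr16:87403809-87403920, had 3.90, 3.92 and 4.11, and the gene held no V5 empty vector peak.

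TMEM231, a protein of the transition zone of primary cilia, had 3.74 over the V5 input, 4.55 over the FLAG input and 5.00 over the FLAG empty vector IP, and this was the gene's single locus in any list. TRA2B, a regulator of splice site choice, had 4.53, 4.33 and 4.94 in the 3′ UTR 139 nt after the stop codon, with 4 GU-loop calls in 160 nt. ILRUN had 3.26, 4.38 and 4.93 at chr6:34588583-34588661. The 3′ UTR of ILRUN also held loci over both empty vectors and loci over the V5 empty vector only, and the nearest V5 empty vector peak was 220 nt away from the member. RPL21, a protein of the large ribosomal subunit, completed the 10 with a 52-nt locus in exon 4 of 6 that had 4.46 over the V5 input, 4.99 over the FLAG input and 5.00 over the FLAG empty vector IP. Of these 10 members, 7 lay in a 3′ UTR and 3 in a CDS.

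**Figure D1:**
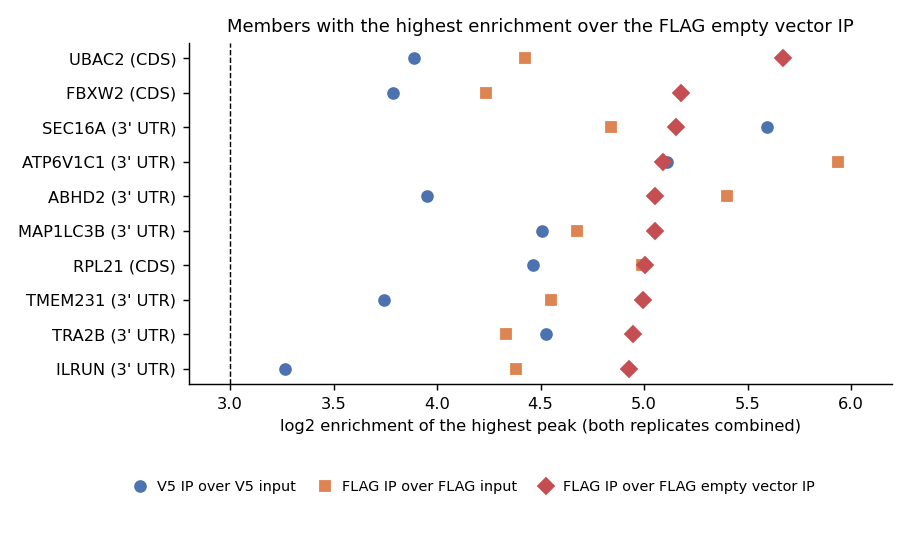
Log2 enrichment (x axis) of the 10 members with the highest values over the FLAG empty vector IP, with their gene and region on the y axis; circles are V5 IP over V5 input, squares FLAG IP over FLAG input and diamonds FLAG IP over FLAG empty vector IP, each 1 deposited value for both replicates. The diamonds run from 4.93 (ILRUN) to 5.67 (UBAC2), the circles from 3.26 (ILRUN) to 5.59 (SEC16A), and the dashed line is the lowest enrichment in the lists.

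At the threshold of the FLAG empty vector list, the members just inside were SARAF, a regulator of calcium entry, with 3.00, RALGAPB, a subunit of a GTPase activating complex for Ral, with 3.02, and SEC24C, which selects cargo for COPII vesicles, with 3.02. RALGAPB was well above the threshold over the inputs, at 4.25 with V5 and 4.93 with FLAG. Just outside the rule were loci that the V5 empty vector list admitted at its lowest values. LMNB2 had 3.00 over the V5 empty vector IP, PDXK had 3.00, RAD54L2 had 3.01 and MRPL49 had 3.02. PDXK, pyridoxal kinase, had 5.14 over the FLAG empty vector IP, a value between those of SEC16A and ATP6V1C1.

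Over the inputs, the FLAG value was higher than the V5 value in 235 of the 365 members (64.4%). The median of FLAG minus V5 was 0.22 on the log2 scale in the members, −0.17 in the loci over the V5 empty vector only, 0.10 in those over both and −0.05 in those over neither. Each IP serves in the input and in the empty vector comparison of its tag, so this difference is not independent of the rule. FLAG exceeded V5 by 1 or more in 42 members and V5 exceeded FLAG by 1 or more in 11.

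The largest FLAG minus V5 differences were in MCAT, LIMK2 and WSB2. MCAT, the malonyltransferase of mitochondrial fatty acid synthesis, had 3.30 over the V5 input, 5.67 over the FLAG input and 3.82 over the FLAG empty vector IP in its CDS. WSB2 had 3.96, 6.04 and 3.88 in its 3′ UTR (chr12:118033982-118034081), 168 nt after the stop codon. LIMK2, a kinase that phosphorylates cofilin, had 3.67, 5.53 and 4.69 in its CDS. The largest differences in the other direction were in ADAT1, WWP2 and SNAP29. ADAT1, a tRNA adenosine deaminase, had 5.36 over the V5 input, 3.00 over the FLAG input and 3.32 over the FLAG empty vector IP. WWP2, a HECT ubiquitin ligase, had 4.86, 3.17 and 4.23, and SNAP29, a SNARE protein of membrane fusion, had 5.66, 4.06 and 3.81. These 3 genes had higher V5 than FLAG values over the inputs and yet a peak over the FLAG empty vector IP and none over the V5 one.

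**Figure D2:**
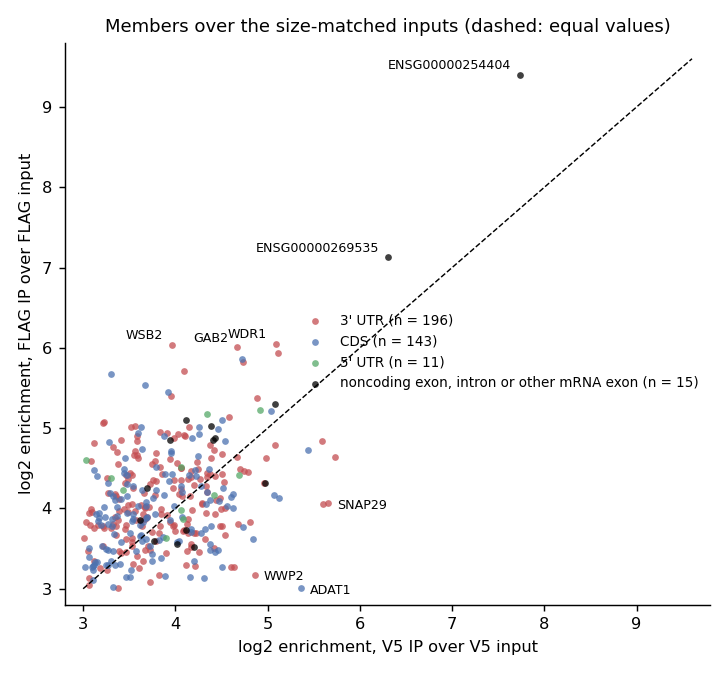
Log2 enrichment of the 365 members over the V5 input (x axis) and over the FLAG input (y axis); each point is 1 locus, coloured by its region, and the dashed line marks equal values. Most points lie above the line (235 of 365), and the pair of loci in introns at 7.13 and 9.40 over the FLAG input stand apart from the rest.

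The loci with the highest values over both inputs did not lie in mRNA exons. ENSG00000254404 had 7.74 over the V5 input, 9.40 over the FLAG input and 3.24 over the FLAG empty vector IP in 25 nt of intron. ENSG00000269535 had 6.30, 7.13 and 3.62 in 24 nt of intron. Their values over the empty vector IP were thus far below those over input. Both loci hold the same run, gtccctgttcaggcgccac, as printed above. With 3 further bases after it the run has 3 exact copies on the main chromosomes of hg38. The longest match of the loci to the 429 RefSeq tRNA genes searched was 17 nt for ENSG00000254404 and 15 nt for ENSG00000269535. When the CCA that mature tRNAs carry at their 3′ end was added, the match was 20 nt (aagtccctgttcaggcgcca) and 18 nt (gtccctgttcaggcgcca), in each case to the lysine tRNA genes TRK-TTT2-1, TRK-TTT4-1 and TRK-TTT7-1. The other member loci of up to 35 nt matched a tRNA gene over 8 to 10 nt. Reads from tRNA and reads from these introns cannot be told apart over such a run, so the gene of these loci is uncertain.

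The next 3 in order over the FLAG input were members in 3′ UTRs, of WDR1, WSB2 (described above) and GAB2. WDR1, which promotes actin filament disassembly together with cofilin, had 5.09 over the V5 input, 6.05 over the FLAG input and 4.61 over the FLAG empty vector IP (chr4:10074854-10075093). GAB2, a docking protein of receptor tyrosine kinases, had 4.67, 6.004 and 4.36 (chr11:78216618-78216733). Over the V5 input, the next in order were MKRN1, a RING finger ubiquitin ligase, with 5.73, SNAP29 with 5.66 and C1orf122 with 5.61. MKRN1 had 4.64 over the FLAG input and 3.52 over the FLAG empty vector IP, and C1orf122 had 4.05 and 4.66.

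Nearly all members lay in exons of mRNA. The canonical transcripts of GENCODE placed 196 members in 3′ UTRs (53.7%, 95% Wilson interval 48.6 to 58.7), 143 in CDS (39.2%, 34.3 to 44.3) and 11 in 5′ UTRs (3.01%, 1.69 to 5.32). A further 5 lay in exons of other transcripts of protein-coding genes, 7 in exons of noncoding genes and 3 in introns. The loci over the V5 empty vector only had 29.1% (25.7 to 32.7) in 3′ UTRs, 52.8% (48.9 to 56.6) in CDS and 15.7% (13.1 to 18.7) in 5′ UTRs. Loci over both empty vectors had 48.2% (44.4 to 52.2), 44.7% (40.9 to 48.6) and 5.59% (4.05 to 7.68). These intervals overlapped those of the members in each region. Loci over neither had 44.7% (41.7 to 47.7), 40.6% (37.7 to 43.6) and 10.2% (8.49 to 12.1). The region was not used by the rule, but no test was run on these shares, since loci of 1 gene are not independent and the intervals cover counting error only.

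Read the other way, members made up 4.31% (2.43 to 7.56) of the 255 loci in 5′ UTRs, 11.99% (10.3 to 13.95) of the 1193 in CDS and 16.9% (14.9 to 19.2) of the 1157 in 3′ UTRs, beside 13.6% of all loci over both inputs. Loci over the V5 empty vector only made up 40% of those in 5′ UTRs, beside 24.1% of all loci over both inputs. The whole FLAG empty vector list had 3.44% of its loci in 5′ UTRs and the whole V5 empty vector list 9.10%, while the input lists had 7.77% with FLAG and 8.84% with V5. The low share of 5′ UTR loci was thus also seen in the FLAG empty vector list as a whole, and the part of its libraries in this was not tested. The 11 members in 5′ UTRs were in CENPP, OGDH, COPG2, DPP9, POMP, EI24, ENTPD6, FOXRED2, DPY19L4, NUP50 and RGS19. The highest over the FLAG empty vector IP was CENPP, a kinetochore protein, at 4.42. The CENPP locus (chr9:92325857-92326012) began upstream of the annotated start of the gene at 92325953. Its midpoint lay before that start, so its gene and region rest on part of the locus.

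**Figure D3:**
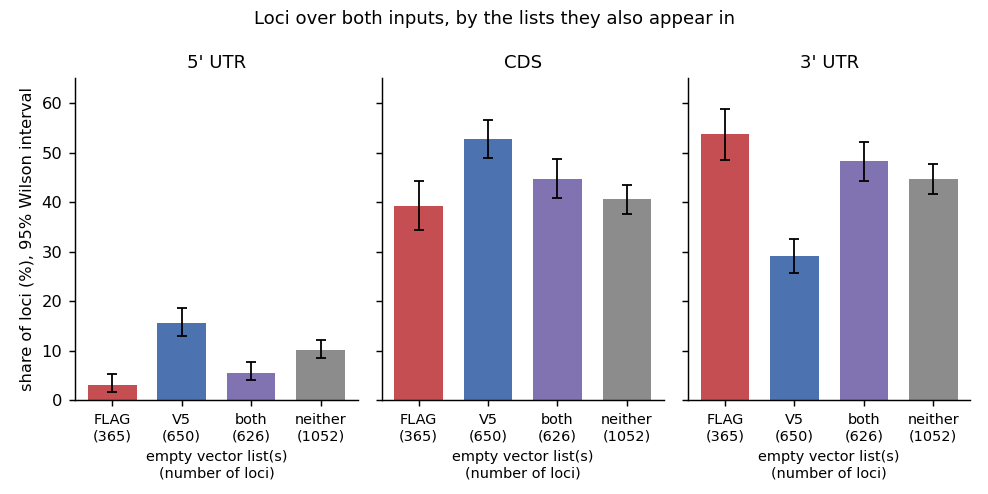
Share of loci in 5′ UTR, CDS and 3′ UTR (y axis, percent) for loci over both inputs that are also over the FLAG empty vector only (the 365 members), the V5 empty vector only, both or neither; error bars are 95% Wilson intervals for counting error. The members have the lowest bar for 5′ UTR (3.01%) and the highest for 3′ UTR (53.7%), with intervals that overlap those of the class over both.

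Within 3′ UTRs the members lay at a median of 879 nt from the stop codon, or 38.8% along the UTR, and 129 of 196 (65.8%) were in its first 50%. The V5 only class had a median of 709 nt and 37.5%, with 62.4% in the first 50%. The class over neither had 673 nt and 39.2%, with 64.3% there, and the class over both had 923 nt and 46.6%, with 54.6% there. Of the members, 19 (5.21%) held both coding and 3′ UTR bases, beside 3.38% in the V5 only class, 4.47% in the class over both and 4.09% in the class over neither. Among them, TRAF4, an adaptor of TNF receptor signalling, had the locus centred nearest to the stop codon, 6 nt after it. BAG1, a co-chaperone of HSP70, had its locus centred 10 nt after the stop codon, with 3.46 over the V5 input, 4.41 over the FLAG input and 3.42 over the FLAG empty vector IP. XPC and AEN had loci centred 53 and 54 nt after it. Within the CDS the median position was 52.1% of its length in the members and 38.3% in the loci over the V5 empty vector only. It was 45.6% in the class over both and 44.3% in the class over neither. The CDS members often reached the edge of an exon. This was so for 97 of 143 (67.8%, 59.8 to 74.9), beside 56.9% in the V5 only class, 64.3% in the class over both and 48.2% in the class over neither.

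The members had the lowest median share of G and C of the 4 classes. In a window of 61 nt centred on the highest FLAG input peak, the median share of G and C was 55.7% in the members, 62.3% in the loci over the V5 empty vector only, 57.4% in those over both and 60.7% in those over neither. In 98 members (26.8%) the share was under 50%, beside 12.9% in the V5 only class, 21.7% in the class over both and 14.8% in the class over neither. The members also had the lowest median within 3′ UTRs and within CDS, the regions compared. In 3′ UTRs the medians were 55.7% in the members, 57.4% in the class over both and 60.7% in each of the other 2 classes. The confidence interval of the median there was 55.7% to 57.4% in the members and in the class over both. Whole 3′ UTR loci had medians of 55.9% in the members and 56.1% in that class. In CDS the medians in the window were 55.7% in the members, 58.2% in the class over both and 60.7% in each of the other 2 classes. The intervals in CDS were 52.5% to 57.4% in the members and 55.7% to 59.0% in the class over both. The members were thus not set apart from the class over both in either region. In each region the intervals of the other 2 classes lay above that of the members. The median share of A was 19.7% in the members, 18.0% in the class over both and 16.4% in each of the other 2 classes. That of T was 24.6% in the members, 22.95% in the class over both and 21.3% in each of the other 2. FBXW11, XPOT and REST, each at 32.8%, had the lowest values of the members, and RGS19 had the highest at 83.6%. The windows were cut from the unspliced genome, so those near an exon edge can hold intron bases. The share of CDS loci that reached an exon edge was highest in the members, with an interval apart only from that of the class over neither, as given above. The part of intron bases in the base shares was not tested, and no test was run on these shares between classes.

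**Figure D4:**
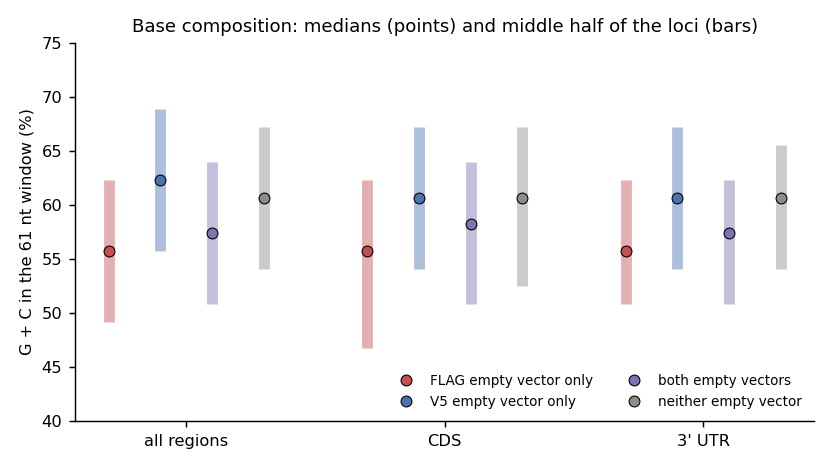
Share of G and C in the 61-nt window centred on the highest FLAG input peak (y axis, percent) for the 4 classes of loci, over all regions, in CDS and in 3′ UTR; points are medians and bars run from the 25th to the 75th percentile of the loci. The members have a median of 55.7% in each of the 3 groups, below the V5 only class (62.3% over all regions).

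A GU-loop:5nt-stem was called in 216 of 365 members (59.2%, 54.1 to 64.1). The shares were 61.7% in the loci over the V5 empty vector only, 64.2% in those over both and 55.04% in those over neither, and the intervals of the members overlapped those of each of the other classes. The call rose with length in the members, from 33.3% of the 72 loci of up to 75 nt through 59.7% of the 196 loci of 76 to 150 nt to 77.3% of the 97 longer loci. In windows of the same 61 nt it was 39.5% in the members, 42.3% in the V5 only class, 44.2% in the class over both and 38.9% in the class over neither. Within the members the model was called in 65.8% of the 3′ UTR loci and in 50.3% of the CDS loci. Each of the other classes also had a higher share in 3′ UTR than in CDS loci (68.9% and 57.5% in the class over both). The rise with length was seen in each of them too. In the sequences printed above, RNAplfold gave the U of UBAC2 a pairing probability of 0.592, and 0.711 for the weakest of its 5 stem bases. For MAP1LC3B these values were 0.202 and 0.642, and for ILRUN they were 0.692 and 0.880. A call is a property of the folded sequence, cut from the unspliced genome, and no measurement of binding.

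The rule asked for no V5 empty vector peak at the locus and set no condition on the rest of the gene. V5 empty vector peaks lay elsewhere in 128 of the 322 genes (39.8%), and these genes held 150 of the 365 members (41.1%, 36.2 to 46.2). Counted in the same way, outside the locus itself, the share was 52.95% over all 2693 loci over both inputs, 44.5% in the class over neither empty vector, 61.1% in the V5 only class and 65.7% in the class over both. The other 194 genes of members held none. Loci over both empty vectors were found in 76 of the genes and loci over the V5 empty vector only in 53. For 147 members the distance to the nearest such peak could be measured along the canonical transcript, from midpoint to midpoint. It was 541 nt at the median, with 161 nt and 1220 nt at the quartiles, and it was at most 200 nt in 47 members.

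In 36 of these 47 members an intron lay between the member and the V5 empty vector peak, so that they were apart on the genome and close on the mature RNA. UBAC2 was the extreme, with a locus at the end of exon 6 and a locus over both empty vectors in the next exon (chr13:99340319-99340370). The V5 empty vector peak of that next locus was 28 nt from the member on the transcript, midpoint to midpoint. On the genome it was 22249 nt away, edge to edge. The neighbouring locus had 3.22 over the V5 input, 3.82 over the FLAG input, 3.44 over the V5 empty vector IP and 4.79 over the FLAG empty vector IP. TRIM28, a corepressor of transcription, had its member 32 nt from a V5 empty vector peak on the transcript, in a gene with 30 such peaks. KIF1A, a motor of synaptic vesicle transport, was at 38 nt, HTT, the huntingtin gene, at 47 nt and EPHX1, microsomal epoxide hydrolase, at 49 nt. Such members are FLAG only as separate pieces of the genome, and their mature RNA holds a V5 empty vector peak within 100 nt in 25 cases, 24 of them across an intron.

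UBAC2 held a second member in its 3′ UTR, with 4.14 over the V5 input, 3.87 over the FLAG input and 3.74 over the FLAG empty vector IP, 69 nt from a V5 empty vector peak. On the genome, the nearest V5 empty vector peak was 24 nt from a member in ENSG00000284989, 25 nt in ENSG00000261147 and 26 nt in HMOX1, edge to edge. The locus in ENSG00000284989 was labelled 3′ UTR in exon 13 of 26. Where overlapping genes covered a locus equally the later gene identifier was taken, so the gene and region of such loci are uncertain. HMOX1, which encodes heme oxygenase, had 4.06 over the V5 input, 4.51 over the FLAG input and 3.16 over the FLAG empty vector IP. Only 14 members had a V5 empty vector peak within 100 nt on the genome. The members were spread thinly over genes, with 1 locus in 282 genes, 2 in 37 and 3 in CSNK2A2, SHC2 and CYFIP2. CSNK2A2, a catalytic subunit of casein kinase 2, had 4.04, 3.75 and 3.15 over the FLAG empty vector IP at its 3 loci, all in exons outside the canonical transcript and with 6, 2 and 3 GU-loop calls. SHC2, a signalling adaptor, had 3.57, 3.91 and 3.41 at its 3 loci, of which 1 held coding and 3′ UTR bases and 2 lay in the 3′ UTR. CYFIP2, a subunit of the WAVE complex that steers actin assembly, had 3.12, 3.23 and 3.76 in exons 12, 17 and 30 of 31. CSNK2A2 and SHC2 held no V5 empty vector peak, while CYFIP2 held 2.

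The longest members were C19orf12 with 355 nt, HERC5 with 346 nt, SLC30A1 with 337 nt, HS1BP3 with 303 nt and F11R with 294 nt. HERC5, a ligase for the ubiquitin-like protein ISG15, had 4.73 over the V5 input, 5.85 over the FLAG input and 3.43 over the FLAG empty vector IP in its first exon. Of the members of up to 35 nt, the locus in MZT2A had 2 exact copies in the genome and the other 12 had 1 each. Members in exons of noncoding genes included the ribosomal protein pseudogenes RPL13AP5, with 4.75 over the FLAG empty vector IP, and RPLP0P6, with 4.46. Their sequence is close to that of the parent mRNA, so that the gene of origin is uncertain.

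The genes were set against 14 lists by function. The lists are partial, and TRA2B, WWP2, MKRN1, HERC5, SNAP29 and MCAT, described above, are in none of them. The shares below are thus those of the listed genes and not of whole functional classes. The lists were chosen with earlier results of these data known, and their counts are given beside the 13.6% of all loci over both inputs that were members. Genes of protein synthesis held few members. Cytoplasmic ribosomal proteins had 3 members among 84 loci (3.57%, 1.22 to 9.98), with 39 of the 84 over the V5 empty vector only (46.4%, beside 24.1% of all loci over both inputs) and 33 over both (39.3%, beside 23.2%). The 3 were RPL37, with 4.02 over the FLAG empty vector IP, and the pair of loci in RPL21. The RPL37 locus lay 4886 nt after the stop codon, in an annotated 3′ UTR of 7245 nt. In RPL21 the loci of exons 4 and 5 had 5.00 and 4.64 over the FLAG empty vector IP and none over the V5 one, whereas the 2 loci before them on the transcript had 3.78 and 4.75 over the V5 empty vector IP and 3.95 and 4.77 over the FLAG one. RPL21 has many near-identical processed copies, so the placement of its reads is uncertain. The −log10 p-value of its loci over the FLAG input was listed at 400, the highest value the lists hold. Translation factors and tRNA synthetases had 1 member among 48 loci (2.08%, 0.369 to 10.9), in TARS1, threonyl-tRNA synthetase, with 3.16 over the V5 input, 3.84 over the FLAG input and 3.27 over the FLAG empty vector IP. In this list 24 of the 48 loci were over the V5 empty vector only (50%, beside 24.1% of all loci over both inputs).

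Genes of the p53 pathway had 6 members in 5 genes among 63 loci (9.52%, 4.44 to 19.3), while 36 of the 63 (57.1%) were over both empty vectors, beside 23.2% of all loci over both inputs. AEN, an apoptosis enhancing nuclease, held 2 members in its 3′ UTR, with 3.49 over the V5 input, 4.36 over the FLAG input and 3.57 over the FLAG empty vector IP at chr15:88630281-88630410 and with 3.97, 4.25 and 3.81 at chr15:88630860-88630944. The stretch between them (chr15:88630438-88630813) was over both empty vectors, with 4.39 over the V5 and 4.09 over the FLAG empty vector IP, and AEN held 7 such loci. CDKN1A, the p21 inhibitor of cyclin-dependent kinases, had 3.66, 4.19 and 3.21 at chr6:36686551-36686680 in its 3′ UTR, 63 nt from a V5 empty vector peak. PPM1D, a phosphatase that dampens p53 signalling, had 4.28, 3.69 and 3.6 in exon 2 of 6. XPC, which recognizes DNA damage in nucleotide excision repair, had 3.53, 4.41 and 3.07 in its 3′ UTR. TP53INP1, a p53-inducible nuclear protein, had 4.12, 3.81 and 3.62, and was the only one of the 5 genes with no V5 empty vector peak. In AEN, CDKN1A and PPM1D the members thus lay inside genes that held V5 empty vector peaks on either side of them. CDKN1A and PPM1D also held other loci without a V5 empty vector peak, so the member was not the only such stretch.

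Genes of protein turnover and of vesicle transport had shares above that of all loci, with intervals that included it. The proteasome and ubiquitin system had 16 members in 13 genes among 90 loci (17.8%, 11.2 to 26.9). UBE2J2, a ubiquitin conjugating enzyme of the endoplasmic reticulum, had 4.50 over the V5 input, 4.43 over the FLAG input and 4.65 over the FLAG empty vector IP in its 3′ UTR. FBXW11, an F-box protein that recognizes beta-catenin, had 3.17, 3.88 and 4.37 at the higher of its 2 members. Vesicle trafficking and small GTPases had 13 members in 12 genes among 72 loci (18.1%, 10.9 to 28.5), led by SEC16A, COPG2 and RAB6B. COPG2, a subunit of the COPI coat, had 4.69, 4.41 and 3.86, and RAB6B, a GTPase of Golgi transport, had 4.11, 4.90 and 3.77.

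Among regulators of transcription and chromatin, zinc finger proteins had 7 members among 40 loci (17.5%, 8.75 to 31.9), and ZNF697 was highest with 3.58 over the V5 input, 4.84 over the FLAG input and 3.70 over the FLAG empty vector IP. Chromatin modifiers had 8 members among 50 loci (16.0%, 8.34 to 28.5). ARID3B, a DNA-binding protein with an ARID domain, had 3.27, 4.19 and 4.25, and HDAC5, a class IIa histone deacetylase, had 3.11, 4.48 and 3.93 at the higher of its 2 members. Histone genes had 0 members among 21 loci, with an upper Wilson limit of 15.5%. The list of splicing factors and RNA helicases, which leaves out TRA2B, had 3 members among 46 loci (6.52%). They were in SF3B3 and SF3B5, which are subunits of the U2 snRNP. Cell cycle and DNA replication genes had 1 member among 33 loci, the CENPP locus that began upstream of the annotated gene.

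Of the remaining lists, nuclear-encoded mitochondrial proteins had 6 members among 65 loci (9.23%). Solute carriers had 5 among 66 (7.58%), led by SLC39A9, a zinc transporter, with 3.22 over the V5 input, 5.08 over the FLAG input and 4.19 over the FLAG empty vector IP. Chaperones had 3 among 34 (8.82%), in BAG1 and BAG6, and tubulins, kinesins and cytoskeleton had 2 among 25 (8%), in CFL2 and KIF1A. No test was run on any list, and loci of 1 gene are not independent, so the intervals are narrower than they would be over genes. Of the 14 lists, 2 had an interval that did not include 13.6%, ribosomal proteins and translation factors, both with shares below it.

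**Figure D5:**
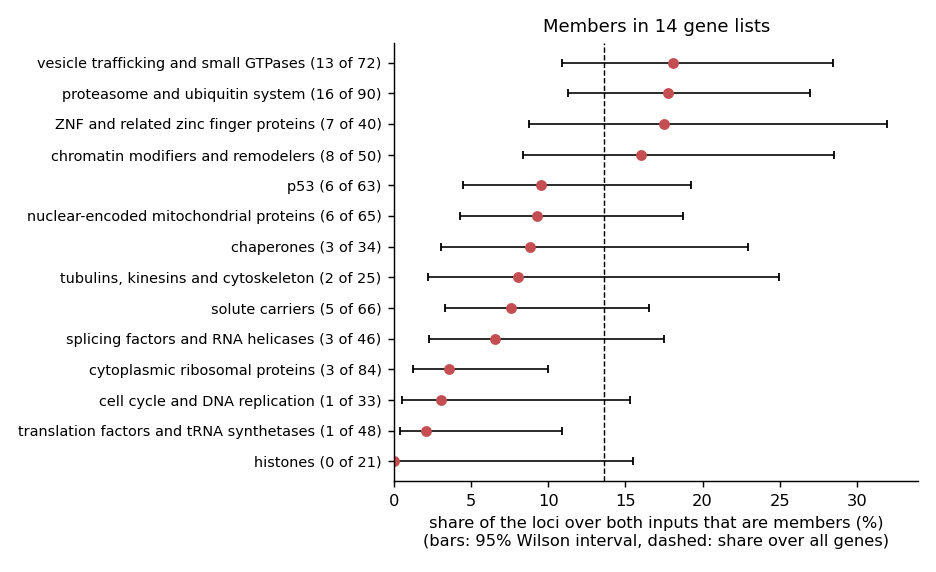
Share of the loci over both inputs that are members (x axis, percent) in 14 gene lists (y axis, with the number of members and of loci); points are shares, bars 95% Wilson intervals for counting error, and the dashed line is 13.6%, the share over all genes. Shares run from 0% in histone genes to 18.1% in vesicle trafficking genes, and the bars of ribosomal proteins and translation factors end below the line.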

How the data were processed

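The authors aligned reads to GRCh38 (per the labels, with UMI-tools 1.0.0, cutadapt 1.14, STAR 2.4.0i and SAMtools 1.6), ran the Yeo laboratory's eCLIP pipeline, 0.4.0, and kept peaks that were reproducible between replicates (IDR). For each of 4 comparisons they deposited peaks with the log2 enrichment of IP over control reads, combined over both replicates, and the −log10 p-value. No deposited log2 value was under 3. Library depth and read scaling are not given in the sources used here. Here, pooled peaks within 10 nt on a strand were merged, the highest peak gave a locus its value, and regions came from GENCODE version 44 canonical transcripts. Where overlapping genes covered a locus equally, the later gene identifier was taken. Sequences came from hg38, tRNA genes from RefSeq (GRCh38.p14). RNAplfold (ViennaRNA 2.7.2, window 70, 50 nt of unspliced genomic padding) gave pairing probabilities. A GU-loop:5nt-stem needed a U paired under 0.7 and 5 next bases each over 0.5. Shares have 95% Wilson intervals (scipy 1.17.1, Python 3.11.15, numpy 2.4.6, pandas 2.3.3). Merging, classing and motif calls were tested on simulated data. Members, lists and named loci were chosen with earlier results of these data known. Named loci were those with the highest values over the FLAG empty vector IP, the highest values over each input, the largest tag differences, the lowest values, the nearest V5 empty vector peaks, the greatest length, several loci in a gene, or a place in a list or outside mRNA. MAP1LC3B's second locus, UBAC2's second locus, TRIM28, HTT, EPHX1, TRAF4, XPOT, REST, the loci with no shared base and the 5′ UTR members were chosen after their values were seen. Some loci that this rule named are not reported here.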

Additional observations from a re-analysis of the deposited data

How the results depend on the processing

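Of 46 alternative values, 41 stayed within their limits and 5 did not. The limits were 1.5 times the value for a count, and the 95% interval for a median or a share. Peaks with a log2 of at least 4 in all lists gave 78 members in 74 genes in place of 365 in 322, since fewer peaks entered. The length-weighted mean over the peaks of a locus lowered the median over the FLAG input from 4.02 to 3.93, since the highest peak was no longer taken. The share with a GU-loop:5nt-stem fell from 59.2% to 39.5% in the 61-nt window, which reads fewer bases, and to 13.4% with stricter pairing (U under 0.5, stem over 0.7). Merging within 0 or 50 nt gave 363 and 361 members. Without members that had a V5 empty vector peak within 200 nt on the genome, 341 remained. After seeing the data, 3 alternatives were added. Leaving out members with such a peak within 200 nt on the transcript gave 318. Taking loci with a log2 of at least 4 over the FLAG input gave 4.23% in 5′ UTRs and 55.6% in 3′ UTRs, and 1 locus per gene gave 3.11% and 56.2%.

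No paired analysis was possible because each deposited list holds 1 value per peak for both replicates, and for the same reason no replicate was left out. Read counts and depth were not used, so single enrichments are given without an error.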
